A study of Mus musculus with 4 samples.

Results

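The PAX-SIX-EYA-DACH network was represented by 8 member genes, Eya1, Eya2, Eya3, Eya4, Six2, Six4, Six5 and Dach1, of the 18193 genes that the array carries under a single symbol. The members were chosen with the measured difference between the 2 lines compared here already known. The values below are therefore a description of these genes and carry no p-value of their own. All 21 probe sets that the platform annotation assigns to one of these genes alone were taken, and 0 further probe sets paired such a gene with another symbol. NSCL61 is a line of p53-/- C57BL/6 mouse neural stem cells, grown as floating spheres in serum-free medium with bFGF, PDGF and forskolin from telencephalic neuroepithelium of embryonic day 14.5, that the labels compare with glioma-initiating cells. NSCL61-sox11 is the same p53-/- line made to express Sox11, and per the submitters' design text it had lost the ability to form tumours after transplantation. Each line was measured on 2 Affymetrix mouse arrays, 4 in all. The sources used here do not state separate cultures within a line, so the p-values below reflect array-to-array variation that may be purely technical. They do not give how Sox11 was driven, and NSCL61-sox11 is 1 derived line.

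As a check of the labels, Sox11 was higher in NSCL61-sox11 on 6 of 6 probe sets, by 0.38 to 2.90 (log2), and its arrays did not overlap between the lines on any of them. Of 14 neural stem and progenitor markers, 10 passed the level filter described below, among them Nes, Sox9 and Sox2, whereas Fabp7, Olig1, Olig2 and Prom1 did not. The filter was also passed by 10 of 12 fibroblast and meninges markers and 4 of 10 skeletal muscle markers. Passing it therefore does not show a cell type. Pearson's r between arrays was 0.994 to 0.995 within a line and 0.968 to 0.972 between lines, taken across probe sets, which are not independent replicates.

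EYA proteins are transcriptional coactivators that also carry a tyrosine phosphatase domain, and they cannot bind DNA themselves. SIX-family proteins are homeodomain factors that bind DNA and bring EYA proteins to their target genes. DACH proteins, relatives of the Ski oncoprotein, act mostly as corepressors in the same complexes, and PAX factors lie upstream of, or beside, this network in eye, ear, muscle, kidney and cranial placode development. In flies the same proteins, eyes absent, sine oculis, dachshund and eyeless, specify the eye.

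Promoters of 6 of the 8 genes were found in the RefSeq table (GRCm38.p6), each covering 250 bases before to 50 bases after an annotated start, in 8 windows. Of these, 4 are shown: Eya4 and Six2, which were higher in NSCL61-sox11, Dach1, which was lower, and a Six4 window. That Six4 window alone holds a full MEF3 element, the sequence that SIX-family proteins bind in muscle genes. Capitals mark the only motif found among these 4 windows.
Eya4, chr10:23349894-23350193, minus strand: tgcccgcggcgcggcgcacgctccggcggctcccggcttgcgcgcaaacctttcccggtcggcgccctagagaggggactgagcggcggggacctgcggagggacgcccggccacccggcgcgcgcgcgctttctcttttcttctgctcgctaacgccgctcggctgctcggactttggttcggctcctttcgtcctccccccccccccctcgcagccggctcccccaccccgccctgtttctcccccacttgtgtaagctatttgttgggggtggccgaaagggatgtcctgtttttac
Six2, chr17:85688205-85688504, minus strand: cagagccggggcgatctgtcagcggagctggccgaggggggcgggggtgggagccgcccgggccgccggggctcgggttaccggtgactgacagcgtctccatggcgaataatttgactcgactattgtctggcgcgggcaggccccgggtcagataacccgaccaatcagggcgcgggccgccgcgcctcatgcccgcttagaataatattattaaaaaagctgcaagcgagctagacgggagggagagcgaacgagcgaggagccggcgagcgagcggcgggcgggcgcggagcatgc
Dach1, chr14:98169716-98170015, minus strand: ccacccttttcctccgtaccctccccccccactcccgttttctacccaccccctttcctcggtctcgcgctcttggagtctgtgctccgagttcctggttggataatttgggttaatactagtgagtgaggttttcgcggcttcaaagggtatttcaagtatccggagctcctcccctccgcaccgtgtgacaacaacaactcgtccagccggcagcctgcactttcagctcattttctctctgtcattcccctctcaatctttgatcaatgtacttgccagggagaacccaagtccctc
Six4, chr12:73113196-73113495, minus strand: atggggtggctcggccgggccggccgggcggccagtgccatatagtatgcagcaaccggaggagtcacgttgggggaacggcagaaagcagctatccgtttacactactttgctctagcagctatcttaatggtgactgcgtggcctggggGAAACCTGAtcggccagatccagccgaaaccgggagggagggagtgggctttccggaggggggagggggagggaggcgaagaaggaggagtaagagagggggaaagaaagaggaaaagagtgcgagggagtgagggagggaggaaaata

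Both strands were searched for MEF3, spelled TCAGGTTTC, which 0.429% of all 32851 promoter windows hold. It lay in the Six4 window shown, on the opposite strand, 99 bases before the annotated start of that window. The other Six4 window, taken from a different annotated start, did not hold it. The SIX-family core TGATAC, held by 5.46% of all windows, was in none of the member windows. A first SOX core, ACAAAG, is held by 18.7% of all windows, and among the members it lay in those of Eya3 and Six5. A second SOX core, ACAATG, held by 12.6% of all windows, was in no member window. The paired domain core GTCACGC, held by 2.09% of all windows, lay in that of Eya3. No match overlapped another, and a match is a string of letters, not a bound site. The motifs were chosen after the values were seen.

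Of the 21 probe sets, 15 passed the level filter, which kept the brightest 60% by mean level (5.15 or more on the log2 scale), and 6 lay below it. Of the 15, 5 were called higher in NSCL61-sox11, meaning a limma adjusted p under 0.05 over all 27022 probe sets tested, and 0 were called lower (2 at an unadjusted p under 0.05, limma). Over all tested probe sets 8.99% were called higher and 8.32% lower; since this contrast chose the members, nothing is read from the counts. The 5 calls came from 3 genes, Eya4 with 3 probe sets, Eya1 with 1 and Six2 with 1. The median difference of the 15 was 0.04 (log2), against -0.02 over all tested probe sets. The arrays of the lines did not overlap for 15 of the 21 probe sets, 10 higher and 5 lower in NSCL61-sox11, or 71.4% against 52.1% of all probe sets.

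**Figure D1:**
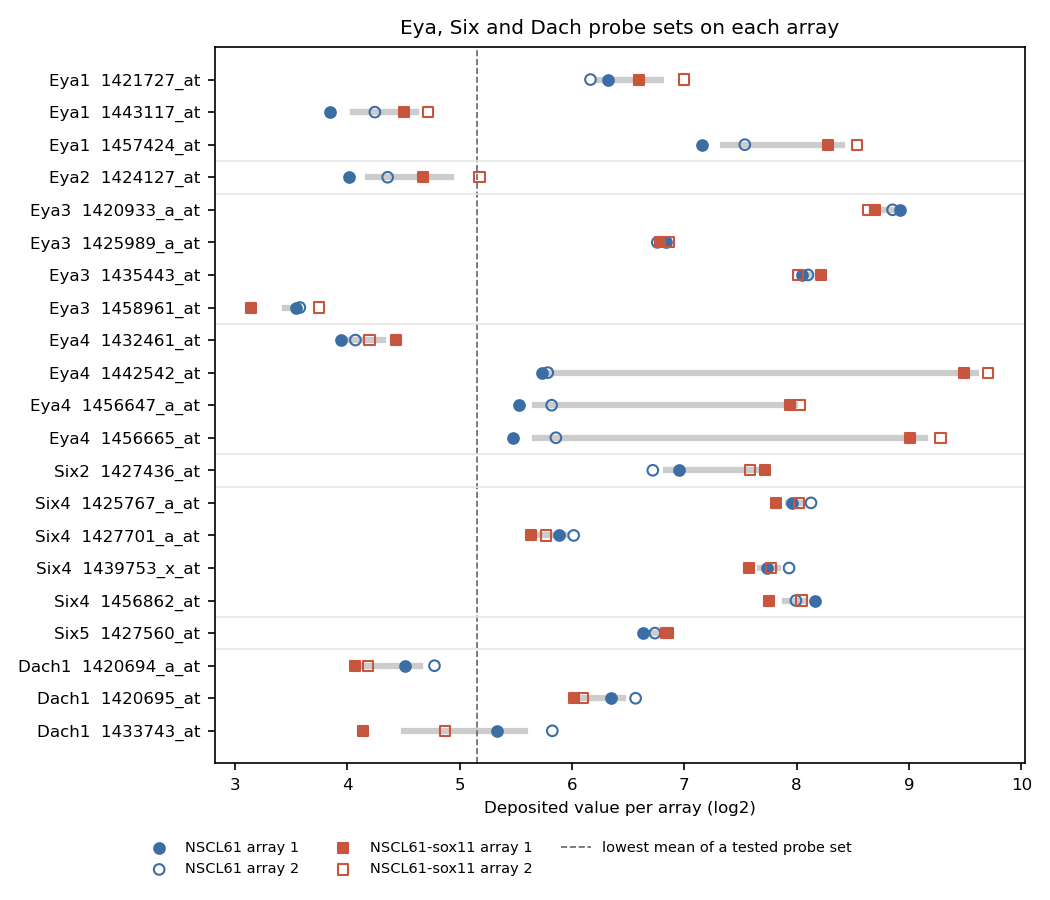
Deposited log2 value of each of the 21 member probe sets (rows) on each of the 4 arrays, circles for NSCL61 and squares for NSCL61-sox11, with grey bars joining the line means and a dashed line at 5.15, the level filter. For 3 Eya4 probe sets the lines stand apart by 2.31 to 3.84, whereas the differences of Six4 and Eya3 lie between -0.25 and 0.04.

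Among the coactivator genes Eya4 differed most. Eya4, mutated in a form of human hearing loss and heart disease, was read by 4 probe sets. On probe set 1442542_at it stood at 5.74 and 5.78 in NSCL61 and at 9.49 and 9.70 in NSCL61-sox11. The groups were far apart, with a difference of 3.84 (SE 0.11) or 14.3-fold, which ranked 8 from the top among the tested probe sets. On 1456665_at Eya4 was 5.48 and 5.86 in NSCL61 and 9.01 and 9.28 in NSCL61-sox11, a difference of 3.48 (SE 0.16) or 11.1-fold. On 1456647_a_at it was 5.53 and 5.82 against 7.94 and 8.03, a difference of 2.31 (SE 0.13) or 4.96-fold. These 3 probe sets thus placed Eya4 higher by unequal amounts. In bulk RNA, fewer cells of a type and less RNA per cell cannot be told apart, here and below. The remaining probe set, 1432461_at, lay below the filter on all arrays, at 3.94 and 4.07 in NSCL61 and 4.43 and 4.20 in NSCL61-sox11. It did not overlap between the lines, but its difference was only 0.31 (SE 0.13).

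Eya1, which is mutated in branchio-oto-renal syndrome, was higher in the Sox11 line by all 3 of its probe sets. On 1457424_at it stood at 7.16 and 7.54 in NSCL61 and at 8.28 and 8.54 in NSCL61-sox11, a difference of 1.06 (SE 0.16) or 2.08-fold. After scaling to the poly-A controls this call was lost, at a difference of 0.65. On 1421727_at Eya1 was 6.33 and 6.16 against 6.60 and 6.996, a difference of 0.55 (SE 0.15) that was not called. Without NSCL61-sox11 array 1 that difference was 0.75 and it was called. The dim probe set 1443117_at read 3.85 and 4.25 against 4.51 and 4.72, a difference of 0.57 (SE 0.16). The arrays of the lines did not overlap on any of the 3 Eya1 probe sets.

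Eya2 had 1 probe set, which lay below the filter. It read 4.01 and 4.36 in NSCL61 and 4.68 and 5.18 in NSCL61-sox11, so that the lines did not overlap and the difference was 0.74 (SE 0.19). Eya3, the most broadly expressed member of the family, showed no such pattern. Its probe sets 1425989_a_at and 1435443_at overlapped between the lines, with differences of 0.02 (SE 0.10) and 0.04 (SE 0.11) that became -0.38 and -0.37 with poly-A scaling. Probe set 1420933_a_at was slightly lower in NSCL61-sox11, at 8.70 and 8.64 against 8.92 and 8.85, a difference of -0.22 (SE 0.09) that was not called. The dim Eya3 probe set 1458961_at lay at 3.15 to 3.75 on the 4 arrays and overlapped. Within the Eya family the differences thus ran from -0.22 for Eya3 to 3.84 for Eya4.

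Among the DNA-binding members, Six2 was higher and the others lay near 0. Six2, which maintains nephron progenitors in the embryonic kidney and marks head mesenchyme, read 6.95 and 6.72 in NSCL61 and 7.72 and 7.59 in NSCL61-sox11. Both NSCL61-sox11 arrays were above both NSCL61 arrays, with a difference of 0.82 (SE 0.12) or 1.76-fold. Its call was lost with poly-A scaling, where the difference was 0.41. Six2 lies next to Six3 in the genome, and the tested Six3 probe set differed by -0.10 (SE 0.11, adjusted p = 0.60).

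Six4, a homeodomain factor of muscle and sensory ganglia, was read by 4 tested probe sets at levels of 5.63 to 8.16. Their differences ran from -0.25 to -0.12, all towards lower values in NSCL61-sox11, and none was called. Only 1427701_a_at did not overlap, at 5.89 and 6.02 in NSCL61 and 5.63 and 5.77 in NSCL61-sox11. The other probe sets 1425767_a_at, 1439753_x_at and 1456862_at overlapped, and the last pair derive from the same source sequence. The window with the MEF3 element shown above thus belongs to a gene with small differences. Six5, which adjoins the myotonic dystrophy gene Dmpk, read 6.64 and 6.74 against 6.83 and 6.85. These values did not overlap but lay close, with a difference of 0.16 (SE 0.10) that was not called and that became -0.25 with poly-A scaling.

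Dach1, the corepressor of the network, ran the other way. On its tested probe set 1420695_at it read 6.35 and 6.57 in NSCL61 and 6.02 and 6.09 in NSCL61-sox11, a difference of -0.40 (SE 0.12) that was not called. On 1433743_at, below the filter, it read 5.33 and 5.83 against 4.14 and 4.87, a difference of -1.07 (SE 0.25). On 1420694_a_at, also below it, the values were 4.52 and 4.78 against 4.07 and 4.18, a difference of -0.52 (SE 0.13). Each Dach1 probe set was lower on both NSCL61-sox11 arrays than on either NSCL61 array, and 2 of the 3 derive from the same source sequence. In a fit of all probe sets without a level filter, 1433743_at and 1420694_a_at were called lower, and 1420695_at was called lower with quantile normalization or hybridisation control scaling.

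**Figure D2:**
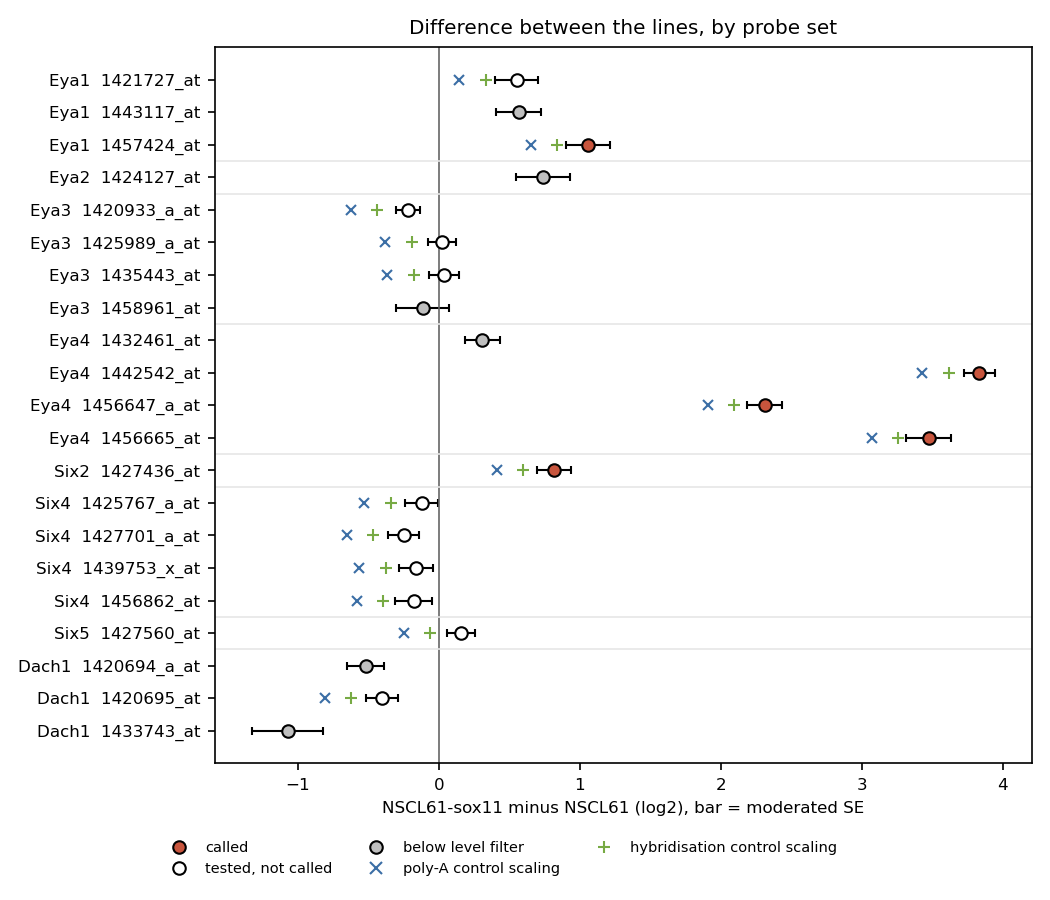
Difference NSCL61-sox11 minus NSCL61 (log2) for each member probe set with its moderated SE. Red points were called, white were tested and not called, grey lay below the level filter, and crosses and plus signs give the difference with arrays scaled to poly-A or hybridisation controls. The 3 Eya4 points stay between 1.91 and 3.84 under these scalings, while Six5 and the Eya3 probe sets 1425989_a_at and 1435443_at change sign.

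The absolute scale of these differences depended on the scaling. Scaling to the poly-A controls moved every difference by -0.40, and scaling to the hybridisation controls by -0.22. Under poly-A scaling Eya4 kept 3 called probe sets, with differences of 1.91 to 3.43, and 0 of the other members were called. The 5 calls of the members were also made when any 1 of the 4 arrays was left out, and the 1442542_at difference then ran from 3.73 to 3.94.

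Other genes of the network were taken from lists written down by role, 42 genes in all, of which 38 had a probe set here and 31 were tested. Of these, 6 rose and 4 fell, and 21 were not called, with a median of -0.01 against -0.02 over all 13084 genes tested. Over all genes 10.0% rose and 9.19% fell. The count of 10 called genes fell to 4 without NSCL61 array 1 (Pax3, Tle2, Gdnf and Sall1) and to 4 without NSCL61 array 2 (Pax3, Tle2, Ezr and Sall1). With poly-A scaling it was 5 (Pax3, Tle2, H2ax, Ezr and Sall1).

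Among the PAX genes, 1 of 6 tested rose and 1 fell. Pax3, a factor of dorsal neural tube, neural crest and muscle precursors that acts with SIX-family and EYA proteins in muscle, read 6.81 and 7.20 in NSCL61 and 8.74 and 9.08 in NSCL61-sox11. It rose by 1.90 (SE 0.17, limma adjusted p = 0.0012), or 3.73-fold, and was called on each of its 3 probe sets, with rises up to 2.41. Pax6, the vertebrate counterpart of eyeless and a factor of cortical progenitors, read 7.91 and 8.03 in NSCL61 and 7.42 and 7.62 in NSCL61-sox11. It fell by 0.45 (SE 0.11, limma adjusted p = 0.040), on 2 of 4 tested probe sets. Leaving out NSCL61 array 1 raised the Pax6 adjusted p to 0.13, leaving out NSCL61 array 2 to 0.21 and leaving out NSCL61-sox11 array 1 to 0.11, and with poly-A scaling it was 0.055. Pax1, Pax4, Pax5 and Pax9 were not called, with differences of -0.01 to 0.16, and Pax7 and Pax8 lay below the filter. Of the paralogues outside the member list, Six6 and Dach2 also lay below the filter.

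Of the Groucho corepressors, which SIX-family proteins can recruit, 3 of 6 rose and none fell on their brightest probe sets. Tle2 read 6.38 and 6.76 in NSCL61 and 8.04 and 8.51 in NSCL61-sox11, a rise of 1.70 (SE 0.19, limma adjusted p = 0.0028) or 3.26-fold. Tle6 and Tle4 rose by 0.62 and 0.43 (limma adjusted p = 0.035 and 0.025). Their limma adjusted p, Tle6 first, became 0.19 and 0.15 on leaving out NSCL61 array 1, 0.063 and 0.11 on leaving out NSCL61 array 2, and 0.078 and 0.058 on leaving out NSCL61-sox11 array 2. For Tle4 it was 0.053 on leaving out NSCL61-sox11 array 1, and with poly-A scaling the differences were 0.21 for Tle6 and 0.03 for Tle4, neither called. Tle1 was not called on its brightest probe set, at -0.33 (SE 0.15). The other Tle1 probe set was called lower, at -0.67 (limma adjusted p = 0.0049).

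In the Ski family and the corepressors that DACH proteins bind, 1 of 4 rose and none fell on their brightest probe sets. Ski, the founding member of the family to which DACH proteins are related, rose by 0.34 (SE 0.08, limma adjusted p = 0.040), on 1 of 2 probe sets. The Ski call was lost on leaving out any 1 of the 4 arrays (adjusted p = 0.066 to 0.25), and its difference became -0.07 with poly-A scaling. Skil, Hdac3 and Sin3a were not called on their brightest probe sets. The dimmer Skil probe set was called lower, at -0.58 (limma adjusted p = 0.015).

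Partners and substrates of EYA or SIX-family proteins were mostly not called, with 1 fall and 0 rises among 7 by limma (2 rises at an unadjusted p under 0.05). The fall was H2ax, the histone variant whose tyrosine mark EYA phosphatases remove after DNA damage. It fell by 0.44 (SE 0.07, limma adjusted p = 0.0089), from 11.65 and 11.52 to 11.14 on both NSCL61-sox11 arrays. Leaving out NSCL61 array 1 or array 2 ended the H2ax call, at an adjusted p of 0.11 and 0.053. Sipa1, Sobp, Mcrs1, Gnai2, Esr2 and Wdr1 were not called on their brightest probe sets, and Gnaz lay below the filter. The 2 dim Gnaz probe sets were higher in NSCL61-sox11, by 0.60 and 0.41, without overlap of the lines. In the fit without a level filter their limma adjusted p was 0.017 and 0.057. Of the 3 Wdr1 probe sets, 1 of the others fell by 0.29 (limma adjusted p = 0.034).

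Genes listed as reported targets of SIX-family and EYA proteins gave 1 called rise and 2 called falls among 7. At an unadjusted p under 0.05 by limma there were 1 rise and 4 falls. The median difference of the list was -0.18, against -0.02 over all genes tested. Sall1, a zinc finger gene of kidney and limb development, read 7.53 and 7.43 in NSCL61 and 6.35 and 6.26 in NSCL61-sox11. It fell by 1.18 (SE 0.10, limma adjusted p = 0.00098), or 2.26-fold lower, and the other Sall1 probe set fell by 0.81. Ezr, which encodes the membrane linker ezrin, fell by 0.43 (SE 0.07, limma adjusted p = 0.0098) on 1 of 2 probe sets. The other differed by -0.09 (SE 0.09, adjusted p = 0.54), and with the mean of both the Ezr call was lost (-0.26, adjusted p = 0.059). Leaving out NSCL61 array 1 ended the Ezr call, at an adjusted p of 0.11. Gdnf, a neurotrophic factor and kidney inducer, read 5.14 and 4.89 against 5.84 and 5.61. It rose by 0.71 (SE 0.14, limma adjusted p = 0.018). Both NSCL61 values lay below 5.15, so that Gdnf passed the level filter only through its NSCL61-sox11 values. Its call was lost with the brightest 40%. Leaving out NSCL61 array 2 gave Gdnf an adjusted p of 0.11, and poly-A scaling 0.38. Ccnd1, Myc, Slc12a2 and Myod1 were not called on their brightest probe sets, with differences of -0.37 to -0.12. The other Ccnd1 probe sets fell by 0.27 and 0.26 (limma adjusted p = 0.042 and 0.036), so that 2 of 3 were called lower. With each gene taken as the mean of its tested probe sets, Ccnd1, Tle1 and Skil were called lower.

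**Figure D3:**
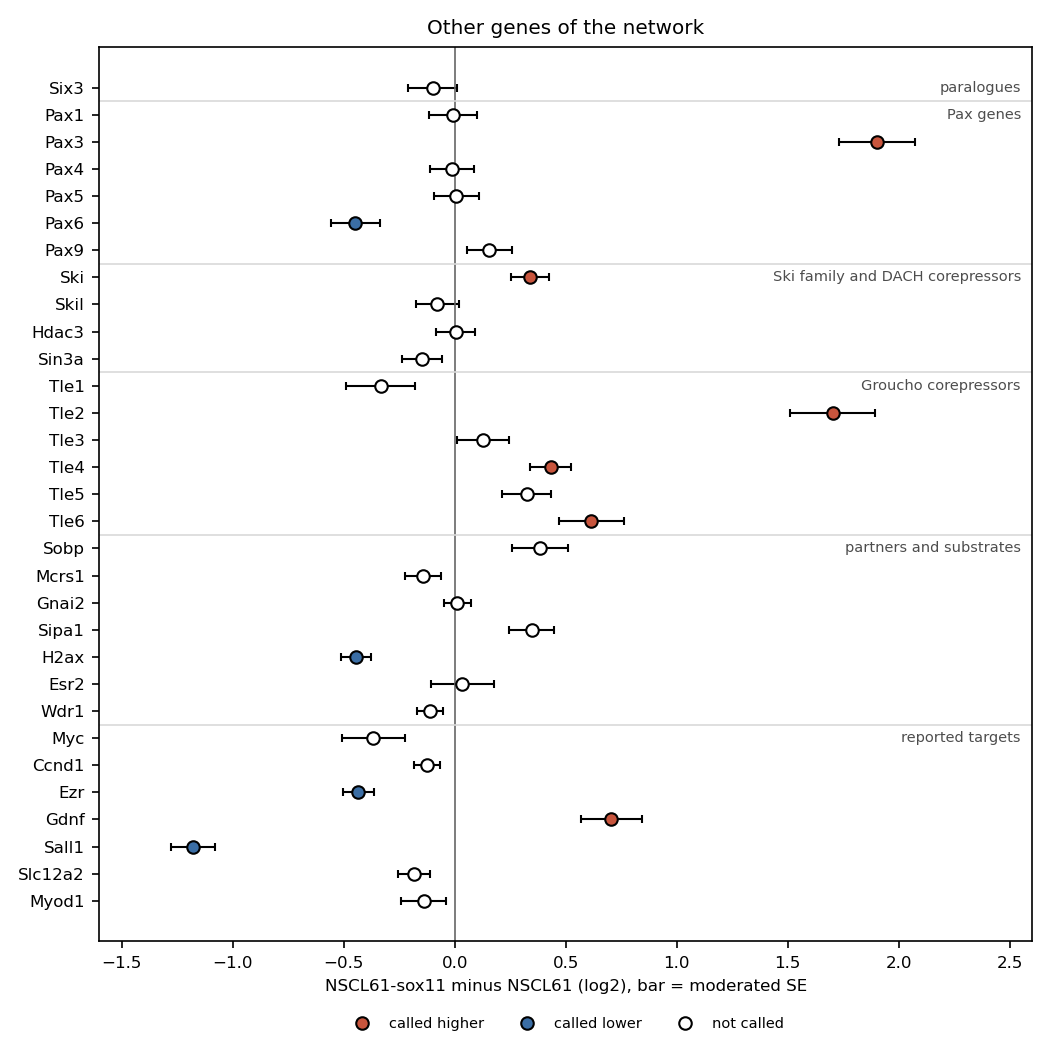
Difference NSCL61-sox11 minus NSCL61 (log2, with moderated SE) for the 31 tested network genes outside the members, grouped by role. Pax3 at 1.90 and Tle2 at 1.70 stand apart on the right and Sall1 at -1.18 on the left, while 21 genes were not called.

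For each member the 2 nearest genes on either side with a tested probe set were read, 32 in all, taken by position, in the gene order of the RefSeq assembly. Of these 4 rose and 4 fell, where 10.0% of all genes tested rose and 9.19% fell. Beside Eya4, the nearest tested gene in 1 direction, Slc18b1, rose by 0.65 (SE 0.09, limma adjusted p = 0.0066). That call ended on leaving out NSCL61 array 1 and with poly-A scaling (limma adjusted p = 0.50). Tbpl1 on the other side of Eya4 differed by 0.03. Beside Six5, Dmpk fell by 1.25 (SE 0.19, limma adjusted p = 0.0086), from 8.34 and 8.80 to 7.12 and 7.53. Trpa1 near Eya1 rose by 1.65 (SE 0.23, limma adjusted p = 0.0060). Trpa1 and Dmpk were called on leaving out any 1 of the 4 arrays and with poly-A scaling. None of the 4 Six2 neighbours was called. Zmynd8 near Eya2 and Atpif1 near Eya3 rose too, and Ppm1a near Six4, Dmwd near Six5 and Bora near Dach1 fell, and each of these 5 calls ended on leaving out either NSCL61 array.

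The pattern of Eya4 over the 4 arrays, centred on its mean, was closest to that of Vgll3, a TEAD cofactor gene, with a root mean square difference of 0.12 log2 units from the Eya4 probe set with the largest difference. Gnai1 (0.18), AI662270 (0.22), Defb41 (0.24) and Sorbs2 (0.25) followed, out of 13077 genes whose median was 1.93. With 4 arrays this ranking mostly sorts genes by the size of their difference.

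Markers of other cell types were read beside these values. Of 12 fibroblast and meninges markers, 10 were tested, 6 rose and none fell, where 10.0% of all genes tested rose and 9.19% fell. The mean level of the 12 markers was 6.91 and 7.31 in NSCL61 and 7.90 and 8.25 in NSCL61-sox11. On the scale of summed level (log2) that list was 11.64 to 11.97 in NSCL61 and 12.34 to 13.10 in NSCL61-sox11. The rises were 3.33 for Postn, 2.99 for Col1a1, 2.33 for Pdgfrb, 1.10 for Col1a2, 0.58 for Foxc1 and 0.46 for Fbln1 (log2), and Col3a1, Dcn, Twist1 and Zic1 were not called. Fbln1 was called on 1 of 3 tested probe sets, the lowest of which differed by -0.18. With their mean the Fbln1 call was lost (0.21, limma adjusted p = 0.15). Lum and Aldh1a2 lay below the filter. Without NSCL61 array 1, 3 of these markers were called, as without NSCL61 array 2 and with poly-A scaling. Of 10 skeletal muscle markers, 4 were tested and 0 called by limma (1 at an unadjusted p under 0.05), with Myog, Myf5, Myf6, Actc1, Tnnt1 and Myh3 below the filter. Of 8 placode and sensory neuron markers, 6 had a probe set and 4 were tested. Isl1 fell by 0.57 on its brightest probe set, a call made in 1 of the 4 fits that left out an array. The other Isl1 probe set, at -1.40, was also called lower. Pou4f1 and Neurog2 lay below the filter. Microglia and blood markers and endothelial markers had 2 and 3 tested members and 0 calls by limma (0 and 1 at an unadjusted p under 0.05). Of the neural stem and progenitor markers, Sox2 fell by 1.70, Vim by 0.21 and Pax6 by 0.45, and Slc1a3 rose by 1.19. Of these 4 calls, 2 were made without NSCL61 array 1, 2 without NSCL61 array 2 and 1 with poly-A scaling. Slc1a3 was called on all 4 of its tested probe sets, with rises up to 2.69. Vim was called on 1 of 3, and with their mean its call was lost (-0.17, limma adjusted p = 0.13). The part of the marker lists in the levels of Eya4, Eya1, Six2 and Pax3 was not tested.

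**Figure D4:**
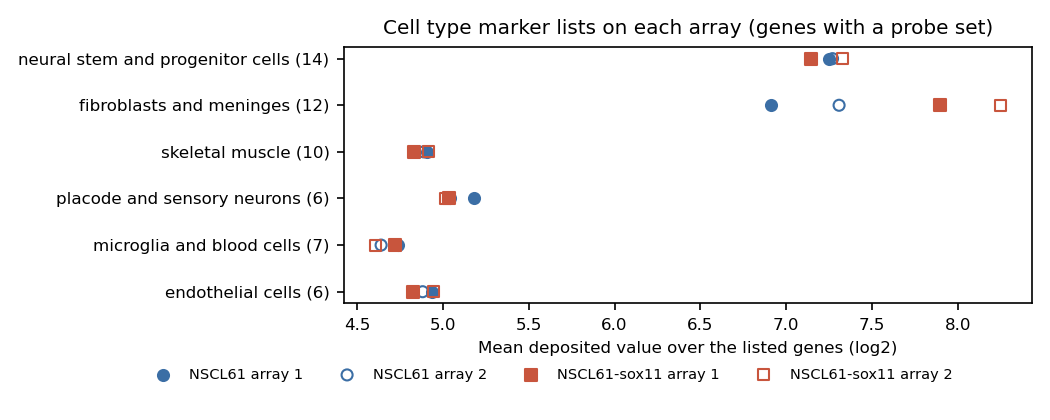
Mean deposited log2 value over the genes of each cell type marker list on each of the 4 arrays, with the number of genes that have a probe set in brackets. Fibroblast and meninges markers are the only list whose NSCL61-sox11 arrays, at 7.90 and 8.25, both lie above both NSCL61 arrays.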

How the data were processed

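Per the labels' protocols, biotin-labelled transcripts of total RNA were read on Affymetrix M430_2 arrays, 1 per sample. The deposited table holds the authors' processed values of 45101 probe sets, read as log2 from their range; the log base, summarisation and normalization are not given in the sources used here. Gene names come from GEO's platform annotation, where 34945 probe sets have 1 symbol, 932 several and 9160 none here.

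Outside 64 controls, the brightest 60% by mean level (27022 probe sets) were tested with limma 3.58.1 in R 4.3.3 (lmFit, eBayes with an intensity trend, two-sided, 2 residual degrees of freedom, 6.36 after moderation), Benjamini-Hochberg adjusted over these and called under 0.05. A gene outside the members stands as its brightest tested probe set. Members below the filter have differences and SE from a fit of all probe sets. With 2 arrays against 2, an exact permutation test cannot go below p = 0.333. The limma fit was tested on simulated data. Members and lists were chosen with earlier results of these data known; the rule for named genes was every member probe set, each network list's called genes (up to 4, by size) and a network list's brightest gene where none was called, and for likeness the 5 genes closest to the member probe set with the largest difference. Genes named beyond that, marker genes among them, the genome neighbours and the motifs were added after the values were seen. Figures were drawn with matplotlib 3.10.9.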

Additional observations from a re-analysis of the deposited data

How the results depend on the processing

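Of all 27022 probe sets tested 4678 were called; 2553 were with poly-A scaling (558 higher, 1995 lower), 9227 with the replicate number as a block (4519 higher, 4708 lower), and 1639 to 4947 when 1 array was left out (1639 without NSCL61 array 1 and 1701 without NSCL61 array 2). The 5 called member probe sets became 3 with poly-A scaling, and were 5 to 6 when 1 array was left out. The 10 other network genes called became 5 with poly-A scaling and 16 with the replicate block, and 4 to 9 when 1 array was left out. Same-numbered arrays deviated together (r = 0.415 across tested probe sets), but with 2 pairs the numbers are not shown to pair the samples. The block kept all 10 network calls and the 5 member calls, and added Eya1 probe set 1421727_at and Dach1 probe set 1420695_at. Under the other alternatives (no level filter, the brightest 40%, quantile normalization, hybridisation control scaling, no intensity trend and, for network genes, the mean of a gene's probe sets) the counts stayed within 1.5 times, though hybridisation control scaling gave 1242 higher and 4656 lower against 2429 and 2249. No called member changed sign under any alternative run. The number of arrays limits precision.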
